A study of Mus musculus with 21 samples.

Results

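Potassium channel genes were read out of 2 hippocampal RNA sequencing experiments in male wild-type mice. The members were the gene symbols that begin with Kcn and end in family letters and a number, leaving out Kcnj8, Kcnj10, Kcne2, Kcnk9 and Kcnq1, which made 87 of the 24411 genes in the deposited tables. The rule uses names alone. The transfer experiment used B6.SJL-Ptprca Pepcb/BoyJ mice of 4 months, which were given splenic and blood CD8+ T cells by tail vein. The C57BL/6J donors were 22 to 28 months old for the aged T recipients (n = 5) and 3 to 4 months old for the young T recipients (n = 6). To deplete the recipients' T cells, both of these groups had been dosed with anti-CD8a on days -11 and -7, so no group without antibody stands beside them. The depletion experiment used mice of 22 to 24 months, injected with anti-CD8a (CD8a antibody, n = 5) or with rat IgG2b as isotype control (IgG2b, n = 5), every 4 days up to the end of the experiment. All mice were perfused and the hippocampus of one hemisphere was used as bulk tissue.

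Potassium channels let potassium leave or enter the cell and so set the resting potential, shorten the action potential and limit repetitive firing. Voltage-gated (Kv) channels are tetramers of pore subunits whose family sets their speed and threshold, and auxiliary subunits change their trafficking and inactivation. In the hippocampus, Kv1 channels act mostly along axons, Kv2 and Kv4 channels on cell bodies and dendrites, Kv3 channels in fast-spiking interneurons, and Kv7 channels carry the M-current that muscarinic receptors close. Inward rectifiers (Kir) and two-pore-domain channels hold the resting potential, and the calcium-activated BK and SK channels end bursts.

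Library depth was 12361933 to 15055422 reads for aged T, 11232442 to 14911138 for young T, 9957822 to 12136146 for the CD8a antibody and 11103024 to 14375029 for IgG2b. Values are normalized counts, the reads of a gene divided by the size factor of its library. The dentate granule cell markers Prox1, C1ql2 and Dsp summed to 1539 to 3149 normalized counts for aged T, 1349 to 4053 for young T, 1443 to 2692 for the CD8a antibody and 934 to 2112 for IgG2b, so every library held this hippocampal cell type. The thalamic markers Tcf7l2, Prkcd, Lhx9 and Slc17a6 were also present. They summed to 706 to 1940 normalized counts for aged T, against 674 to 1123 for young T, with 3 genes lower and 1 higher. Sums were 503 to 1201 with the CD8a antibody, against 615 to 793 with IgG2b, with 2 genes lower and 2 higher. In bulk tissue, fewer cells of a type and less RNA per cell cannot be told apart. Each library is a separately titled sample, and nothing in the labels says more about how the animals were housed or processed, so the tests measure the spread between these samples.

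Of the 87 members, 70 reached the mean of 10 normalized counts needed for testing in each experiment, and they were the same 70. The other 17 were Kcna7, Kcna10, Kcne1, Kcne3, Kcnh6, Kcnh8, Kcnj1, Kcnj5, Kcnj15, Kcnk5, Kcnk7, Kcnk15, Kcnk16, Kcnk18, Kcnmb3, Kcnn4 and Kcnv2. Kcnk18 had 0 reads in both experiments, Kcnj1 and Kcnk16 had 0 in the transfer experiment, and Kcnmb3 had 0 in the depletion experiment. The tested members by role were 6 of 8 Kv1 genes, 2 of 2 Kv2, 4 of 4 Kv3, 3 of 3 Kv4, 9 of 10 modifier subunits, 4 of 4 Kv7, 6 of 8 EAG, ERG and ELK genes, 4 of 5 calcium-activated, 3 of 3 sodium-activated and Slo3, 10 of 13 inward rectifiers, 8 of 13 two-pore-domain and 11 of 14 auxiliary subunits.

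Per kilobase of transcript, the level was highest for Kcnab2, the beta subunit of Kv1 channels, at 3481 normalized counts per kb over the transfer libraries and 3035 over the depletion libraries. Kcna1 (Kv1.1), Kcnip2, a calcium-sensing partner of Kv4 channels, and Kcnk1, a two-pore-domain channel, were also among the 5 highest in both experiments. Levels of these 3 genes ran from 671 to 725 normalized counts per kb over the transfer libraries and from 548 to 619 over the depletion libraries. Members differed widely in how evenly they were measured. The SD of log2 levels within groups had a median of 0.28 over the tested members in the transfer experiment and 0.30 in the depletion experiment. It was largest for Kcnj13 in both, at 1.58 and 1.93, whereas Kcnab2 had an SD of 0.12 in the depletion experiment and Kcnj11 one of 0.09 in the transfer experiment.

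The depletion experiment asked what changed in the aged hippocampus after CD8+ T cells were targeted. In antibody-treated mice 4 voltage-gated channel genes lay below IgG2b in every library: Kcnc2, Kcng1, Kcnd3 and Kcnf1. Kcnc2 (Kv3.2) and Kcng1 (Kv6.1) were 0.53 and 0.67 lower on the log2 scale and passed DESeq2 on the recovered reads, but neither passed limma, the main test. No member was called by limma with Benjamini-Hochberg adjustment over all genes (0 of 70, smallest adjusted p = 0.233), against 1 of the 13939 genes tested, or 0.00717%. edgeR's quasi-likelihood test and limma-voom called 0 members and 1 gene each, also 0.00717%. DESeq2 called 2 members among 92 of 14024 genes, or 0.656%, and both were lower, against 0.442% of genes. On the same test, the authors' deposited table calls the same 2. The number with groups that did not overlap and lower values was 4 of 70, against 1.27% of all genes, and 0 of 70 in the other direction, against 0.782%.

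Kcnc2, a pore subunit of fast Kv3 channels known from interneurons, had 912, 730, 992, 762 and 692 normalized counts with the CD8a antibody, against 1291, 1032, 1231, 1258 and 1054 with IgG2b. All 5 antibody libraries lay below all 5 IgG2b libraries, and the gap between the groups was small, from 992 to 1032. Means were 817 ± 128 with the CD8a antibody and 1173 ± 121 with IgG2b (SD, n = 5 each). The log2 difference of Kcnc2 was -0.53 ± 0.12 (SE), with an adjusted p of 0.233 by limma and 0.0190 by DESeq2. Its RefSeq bounds are 112269898 to 112466304 of chromosome 10 (GRCm38.p6, as are all positions here).

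Kcng1, a modifier subunit that is silent alone and joins Kv2 channels, had 171, 121, 193, 146 and 181 normalized counts with the CD8a antibody, against 205, 230, 297, 255 and 309 with IgG2b. Again the groups did not overlap, and the lowest IgG2b library was close to the highest antibody library. The means of Kcng1 were 163 ± 28.8 with the CD8a antibody and 259 ± 43.8 with IgG2b (SD, n = 5 each), giving a log2 difference of -0.67 ± 0.16 (SE) with an adjusted p of 0.233 by limma and 0.0236 by DESeq2. It lies at 168260117 to 168281533 of chromosome 2. The calls of both genes depended on single libraries. When each library was left out in turn, DESeq2 called Kcnc2 in 6 of 10 fits and Kcng1 in 5 of 10, and it called no member at all without IgG2b replicate 3 or without IgG2b replicate 4. Without the CD8a antibody replicate 5 it called 4 members, Kcnc2, Kcng1, Kcnd3 and Kcnf1. Over all genes DESeq2 called 25 and 32 in the fits without those IgG2b libraries and 303 in the fit without antibody replicate 5, against 92 with all libraries.

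Kcnd3 (Kv4.3), a pore subunit of the A-type current that delays firing, had 844, 997, 1110, 1190 and 668 normalized counts with the CD8a antibody, against 1287, 1336, 1291, 1419 and 1400 with IgG2b. The 5 IgG2b libraries lay close together and above every antibody library. Its log2 difference was -0.51 ± 0.14 (SE), with an adjusted p of 0.0918 by DESeq2. Kcnf1 (Kv5.1), another modifier subunit of Kv2 channels, had 852, 1006, 927, 964 and 1036 normalized counts with the CD8a antibody, against 1686, 1055, 1317, 1153 and 1268 with IgG2b. Here the antibody libraries were the tight group, and the highest of them was just below the lowest IgG2b library. The log2 difference of Kcnf1 was -0.42 ± 0.12 (SE), with an adjusted p of 0.0942 by DESeq2. Kcnd3 lies at 105451890 to 105674002 of chromosome 3 and Kcnf1 at 17172100 to 17176888 of chromosome 12. Kcnd3os, listed as antisense to Kcnd3, had 0.863 to 13.2 normalized counts in these libraries. The 250 bases before the start of these genes are shown because both lay apart between the groups. They were read from RefSeq promoters on the strand of the gene, chr3:105451640-105451889 on the plus strand and chr12:17176889-17177138 on the minus strand.
Kcnd3: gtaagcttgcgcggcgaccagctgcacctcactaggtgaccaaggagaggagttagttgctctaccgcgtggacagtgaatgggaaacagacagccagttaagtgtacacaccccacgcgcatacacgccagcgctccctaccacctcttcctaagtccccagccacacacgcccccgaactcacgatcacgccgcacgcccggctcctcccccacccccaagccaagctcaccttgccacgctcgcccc
Kcnf1: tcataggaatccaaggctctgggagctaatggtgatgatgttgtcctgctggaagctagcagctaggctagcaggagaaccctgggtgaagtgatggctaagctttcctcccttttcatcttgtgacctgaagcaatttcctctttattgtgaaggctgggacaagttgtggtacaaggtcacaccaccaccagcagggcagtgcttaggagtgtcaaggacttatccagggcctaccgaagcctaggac
Neither stretch holds, on either strand, the GC box GGGCGG, the TATA box TATAAA or the cyclic AMP response element TGACGTCA, so no letters are in capitals. Among the 64 members with a RefSeq promoter entry, 38 (59.4%) had a GC box in at least one such stretch, against 35.4% of all 27025 genes with an entry. Those genes were not limited to the ones expressed here, nor matched to the members in their number of entries. A TATA box stood in 3 of these members (4.69%) against 14.3% of genes, and the response element in 0 members (0%) against 1.77% of genes. Kcng1 has no entry, and the entries for Kcnc2 overlap the bounds of the gene.

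**Figure D1:**
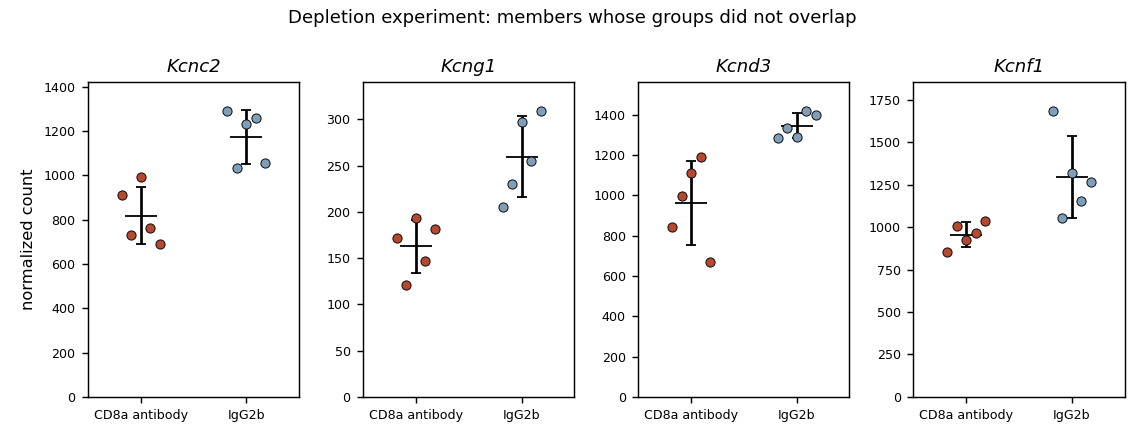
Normalized counts (y axis, from 0) of Kcnc2, Kcng1, Kcnd3 and Kcnf1 in each library of the depletion experiment, with the CD8a antibody on the left and IgG2b on the right of each panel. Points are libraries, the horizontal line is the mean and the bar 1 SD (n = 5 each), and in each panel all antibody libraries lie below all IgG2b libraries.

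Below that threshold, 10 of 70 members had an unadjusted limma p under 0.05, against 8.47% of all genes. Of these, 8 were lower, against 4.15% of all genes, and 2 were higher, against 4.31%. Beside the 4 above, the lower ones were Kcnq5, Kcna3, Kcnmb2 and Kcnj14. Kcnq5, a pore subunit of the M-current, had 1041, 708, 928, 884 and 715 normalized counts with the CD8a antibody, against 755, 1158, 1145, 1490 and 1483 with IgG2b. One IgG2b library lay among the antibody libraries and the others lay above them all. Kcna3 (Kv1.3), a channel best known from T lymphocytes and microglia, had 53.9, 43.5, 57.6, 40.2 and 25.5 normalized counts with the CD8a antibody, against 67.3, 54.8, 61.7, 67.9 and 70.8 with IgG2b. Its groups overlapped through a single IgG2b library. Kcnmb2, an auxiliary subunit that inactivates BK channels, and Kcnj14, an inward rectifier, differed by -0.49 ± 0.20 and -0.61 ± 0.25 (log2, SE).

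The 2 higher members were weakly expressed. Kcnh4, an ELK channel known from forebrain neurons, had 22.8, 25.6, 21.6, 14.5 and 27.4 normalized counts with the CD8a antibody, against 23.3, 6.51, 12.2, 8.38 and 3.22 with IgG2b. IgG2b replicate 1 lay inside the antibody range, and the other 4 IgG2b libraries were below it. The log2 difference of Kcnh4 was 1.21 ± 0.43 (SE), with a DESeq2 adjusted p of 0.365. Kcnmb1, the BK subunit of smooth muscle, averaged 19.2 ± 5.22 normalized counts with the CD8a antibody and 10.3 ± 6.83 with IgG2b (SD, n = 5 each), giving a log2 difference of 1.07 ± 0.49 (SE). Of 6 pericyte and smooth muscle markers, 5 were higher too, and their summed level was 1364 to 2326 normalized counts with the CD8a antibody, against 1184 to 1502 with IgG2b. Among them Acta2, smooth muscle actin, averaged 222 ± 85.1 normalized counts with the CD8a antibody and 99.8 ± 19.5 with IgG2b (SD, n = 5 each), with a DESeq2 adjusted p of 0.00537. The part of smooth muscle in the value of Kcnmb1 was not tested. Kcnmb1 also lies within the bounds of Kcnip1 on chromosome 11. RSEM is named in the processing notes, but the settings for assigning reads there were not given in the sources used here, so both values are uncertain.

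Over all members, 47 of 70 had a log2 difference below 0 in the depletion experiment, against 50.4% of all genes, and 23 above 0, against 49.6%. Their median was -0.11 and that of all genes -0.00. Medians were lowest for Kv4 (-0.32), Kv3 (-0.26) and calcium-activated genes (-0.21). In the calcium-activated group, which holds Kcnma1 (BK) and the SK channels, 4 of 4 tested genes lay below 0 and 0 of 4 had an unadjusted p under 0.05. Kcnma1 averaged 607 ± 135 normalized counts with the CD8a antibody and 751 ± 109 with IgG2b (SD, n = 5 each). The inward rectifiers had 7 of 10 below 0 with a median of -0.18. Their widest value was that of Kcnj13 (Kir7.1), a channel of the choroid plexus epithelium.

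In the Kv3 group, Kcnc1 (Kv3.1), which shares fast-spiking interneurons with Kcnc2, had 2196, 1641, 2121, 1918 and 1763 normalized counts with the CD8a antibody, against 2237, 2229, 2129, 2213 and 2276 with IgG2b. The IgG2b values were nearly identical to each other, and one antibody library lay between them. Kcnc1 differed by -0.21 ± 0.10 and Kcnc4 by -0.31 ± 0.16 (log2, SE). In the Kv4 group Kcnd2 (Kv4.2), the main dendritic A-type subunit of pyramidal neurons, averaged 1422 ± 393 normalized counts with the CD8a antibody and 1385 ± 212 with IgG2b (SD, n = 5 each), giving a log2 difference of 0.00 ± 0.18 (SE). The Kv4 partners Kcnip2, Kcnip3 and Kcnip4 differed by 0.11 ± 0.16, -0.09 ± 0.14 and -0.07 ± 0.13 (log2, SE), all within the spread of the libraries.

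Two-pore-domain genes, which carry leak current, were the group with a positive median in the depletion experiment, 0.10, with 6 of 8 tested genes above 0 and 0 of 8 with an unadjusted p under 0.05. This median was 0.02 without antibody replicate 1, and it turned to -0.08 with the ventral minus dorsal marker score, described further on, as a covariate. Kcnk13 (THIK-1), a channel of microglia, had 264, 121, 147, 151 and 167 normalized counts with the CD8a antibody, against 155, 133, 116, 98.1 and 125 with IgG2b. The groups overlapped, and antibody replicate 1 stood highest. The 4 microglia markers Cx3cr1, P2ry12, Tmem119 and Csf1r were all higher in mean, with a median log2 difference of 0.28 and sums of 2436 to 3677 normalized counts with the CD8a antibody, against 2341 to 2874 with IgG2b. Their part in the value of Kcnk13 was not tested. Kcnk2 (TREK-1), a mechanically and lipid gated channel, averaged 835 ± 130 normalized counts with the CD8a antibody and 723 ± 81.7 with IgG2b (SD, n = 5 each). Kcnab2 averaged 12394 ± 818 normalized counts with the CD8a antibody and 11414 ± 1094 with IgG2b (SD, n = 5 each), giving a log2 difference of 0.12 ± 0.11 (SE).

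**Figure D2:**
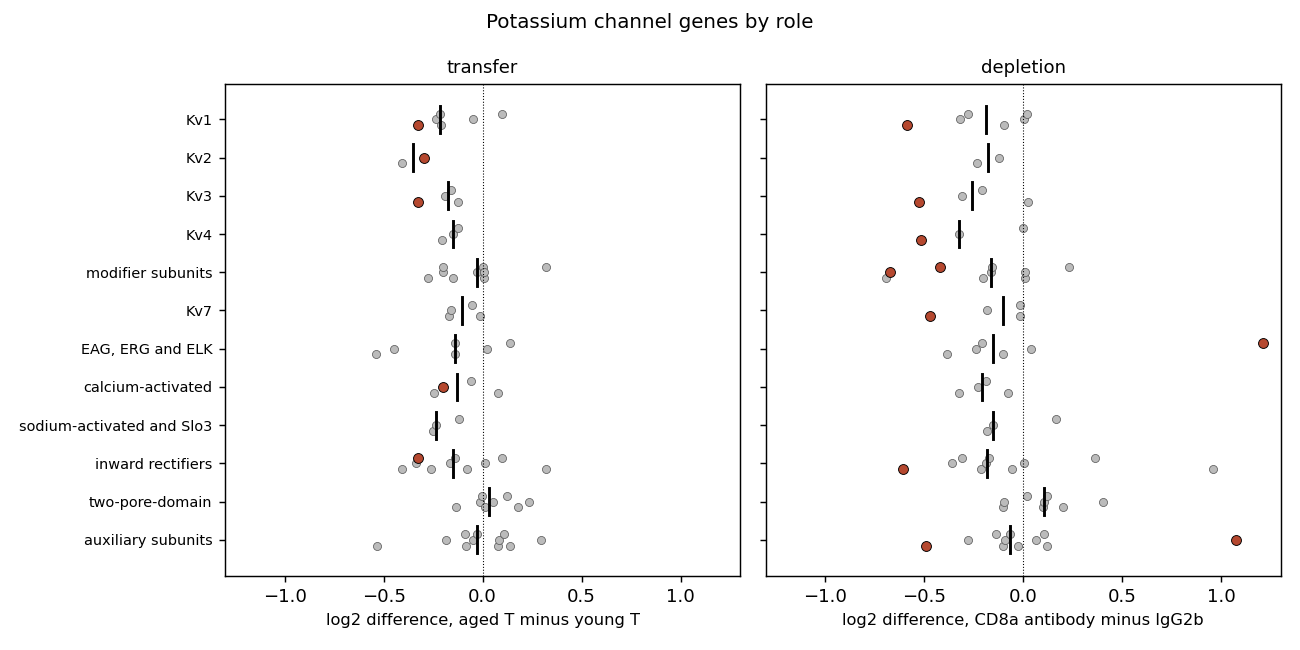
Log2 difference of each tested member (x axis, log2 of normalized count + 1) by role, with the transfer experiment (aged T minus young T) on the left and the depletion experiment (CD8a antibody minus IgG2b) on the right. Each point is a gene, filled red where the unadjusted limma p was under 0.05, and the vertical bar is the median of the role. Most voltage-gated roles have medians below 0 in both panels, and the two-pore-domain median is 0.03 on the left and 0.10 on the right.

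Other values moved with the groups in the depletion experiment. All 5 markers of ventral hippocampus were lower in antibody-treated mice, with a median log2 difference of -0.82 and sums of 885 to 1514 normalized counts with the CD8a antibody, against 1573 to 2023 with IgG2b. A score of the mean log2 level of the 5 ventral markers minus that of 4 dorsal markers, given relative to the IgG2b mean, was -1.51 to -0.42 with the CD8a antibody, against -0.30 to 0.38 with IgG2b. The score did not overlap between the groups, so the treatment and the ventral to dorsal content of the dissected tissue cannot be told apart. Inhibitory neuron markers were lower for 5 of 6 genes, with a median of -0.27, and summed to 8275 to 12234 normalized counts with the CD8a antibody, against 11884 to 13545 with IgG2b. Among the inhibitory markers, Vip averaged 168 ± 43.8 normalized counts with the CD8a antibody and 254 ± 68.0 with IgG2b, whereas Pvalb, the marker of fast-spiking cells, averaged 576 ± 202 with the antibody and 549 ± 154 with IgG2b (SD, n = 5 each). Oligodendrocyte markers were higher for 5 of 5 genes, with a median of 0.41. Dentate granule cell markers were higher for 3 of 3 genes with a median of 0.60. Of them, 2 had an unadjusted limma p under 0.05, against 8.47% of all genes. Ependymal markers were higher for 3 of 3 genes with a median of 0.91 and sums of 99.0 to 421 normalized counts with the CD8a antibody, against 88.9 to 273 with IgG2b. The part of these cell types in the values of the members was not tested.

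When the ventral minus dorsal score was added as a covariate, the log2 differences of Kcnc2 and Kcng1 were -0.88 and -0.90. Their limma adjusted p-values were 0.284 and 0.395. Because the score did not overlap between the groups, this fit cannot separate the treatment from the score. In it Kcnd2 was -0.88, against 0.00 without the covariate. DESeq2 with the same covariate called Kcnc2 (adjusted p = 0.0256) and gave Kcng1 no adjusted p. It called 1 member among 131 genes, against 2 members among 92 genes without the covariate. In the limma fit with the covariate, 16 members had an unadjusted p under 0.05, of which 14 were lower, against 10.2% of all genes. The role medians were then -0.80 for Kv4 and -0.47 for Kv3. Per library, the mean log2 level of the 70 tested members relative to the IgG2b mean was -0.23 to 0.01 with the CD8a antibody, against -0.07 to 0.06 with IgG2b. The lowest of all was antibody replicate 5, in which Kcna2 had 1061 normalized counts, against 2409 to 2822 in the other antibody libraries. Without that library the log2 difference of Kcna2 was -0.06, against -0.32 with all libraries, and the median of the inward rectifiers was -0.07. The median of the members was then -0.08, with 49 of 70 below 0, and the members with an unadjusted p under 0.05 were 11 lower and 4 higher, against 13.2% of all genes.

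**Figure D3:**
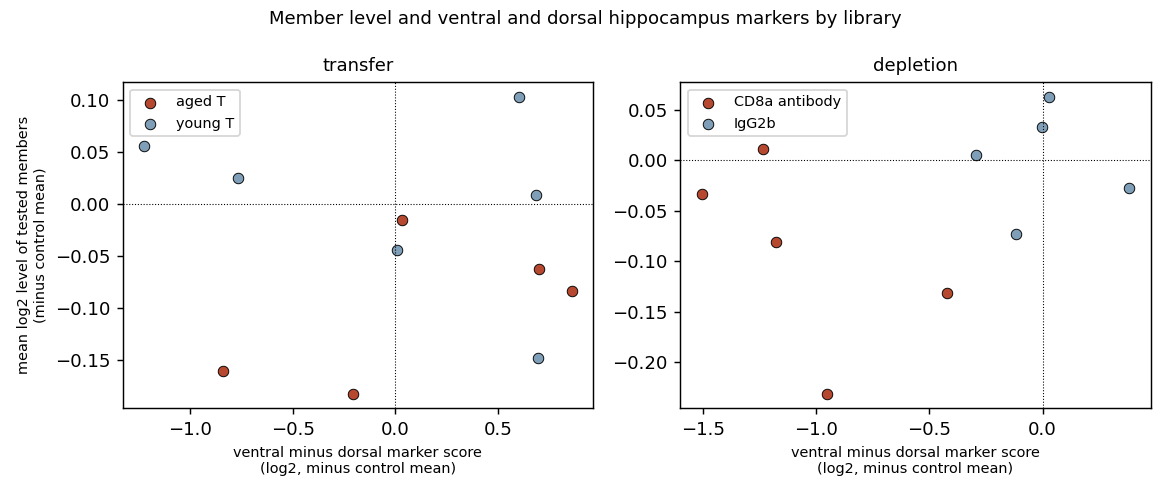
Mean log2 level of the 70 tested members in each library (y axis) against the ventral minus dorsal marker score of that library (x axis), both relative to the mean of the young T or IgG2b libraries, for the transfer experiment on the left and the depletion experiment on the right. Antibody libraries all lie left of the IgG2b libraries, and antibody replicate 5 is the lowest point, at -0.23.

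The transfer experiment asked what aged CD8+ T cells change in a young hippocampus. The 5 members with the smallest p-values were all lower in aged T recipients, among them Kcnj9, Kcnn2 and Kcna2. None of the 70 members was called by limma (smallest adjusted p = 0.600), and none of the 14162 genes tested was (0%). DESeq2, edgeR's quasi-likelihood test, limma-voom and the authors' deposited table also called 0 genes, and the smallest DESeq2 adjusted p of a member was 0.386. An unadjusted p under 0.05 was reached by 5 of 70 members against 8.25% of all genes, with 5 lower against 3.96% and 0 higher against 4.29%. No member had groups that did not overlap, lower (0.24% of all genes) or higher (0.459%).

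Kcnj9 (GIRK3), a G-protein-gated inward rectifier, had 1323, 1144, 1032, 1207 and 1092 normalized counts in aged T recipients, with 1234, 1439 and 1805 as the lowest, median and highest of the 6 young T recipients. A single aged T library, the highest, lay inside the young T range. Means of Kcnj9 were 1160 ± 112 in aged T recipients (n = 5) and 1461 ± 193 in young T recipients (n = 6), a log2 difference of -0.33 ± 0.10 (SE). Its partners in these channels, Kcnj3 (GIRK1) and Kcnj6 (GIRK2), differed by -0.14 ± 0.12 and -0.33 ± 0.19 (log2, SE).

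Kcna2 (Kv1.2), a pore subunit of axonal Kv1 channels, had 2782, 3042, 2902, 3303 and 2006 normalized counts in aged T recipients, with 2586, 3444 and 4627 as the lowest, median and highest of the young T recipients. Here 4 of the aged T libraries lay inside the young T range. Kcna2 averaged 2807 ± 488 normalized counts in aged T recipients (n = 5) and 3526 ± 701 in young T recipients (n = 6, SD), a log2 difference of -0.33 ± 0.14 (SE). Kcnn2 (SK2), a calcium-activated channel of dendritic spines, had 440, 470, 526, 574 and 449 normalized counts in aged T recipients, with 529, 558 and 617 as the lowest, median and highest of the young T recipients. One aged T library lay inside the young T range and the others lay below it. Kcnn2 averaged 492 ± 56.7 normalized counts in aged T recipients (n = 5) and 562 ± 31.4 in young T recipients (n = 6, SD), a log2 difference of -0.20 ± 0.09 (SE). Beside Kcnj13, described further on, the highest positive values were those of Kcng2 (0.32 ± 0.19) and Kcnip1 (0.29 ± 0.17). Neither had an unadjusted p under 0.05, and the value of Kcnip1 is uncertain because Kcnmb1 lies within its bounds. The count of members with an unadjusted p under 0.05 rested on single libraries. It was 3 without aged T replicate 1 (7.27% of all genes) and 3 without aged T replicate 5 (4.24%). Without aged T replicate 3 it was 8 (6.80% of all genes), without aged T replicate 4 it was 12 (12.8%) and without young T replicate 3 it was 11 (11.2%).

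**Figure D4:**
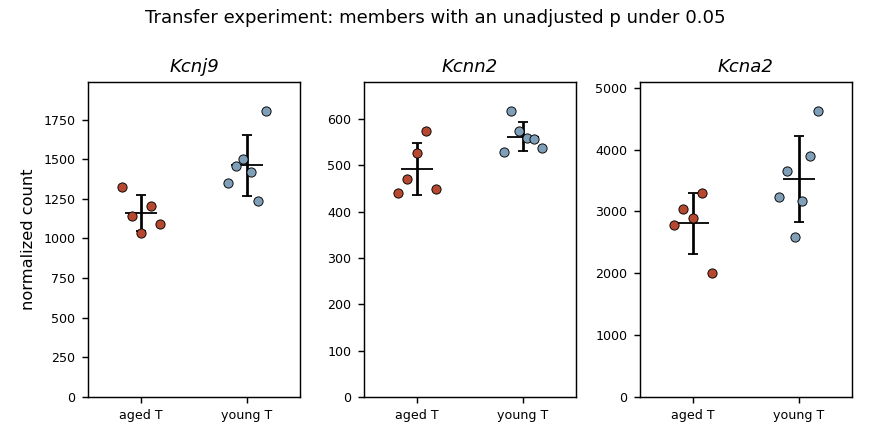
Normalized counts (y axis, from 0) of Kcnj9, Kcnn2 and Kcna2 in each library of the transfer experiment, with aged T recipients (n = 5) on the left and young T recipients (n = 6) on the right of each panel. Points are libraries, the horizontal line is the mean and the bar 1 SD, and the groups overlap in every panel.

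Across the family, 49 of 70 members had a log2 difference below 0 in the transfer experiment, against 51% of all genes, with a median of -0.12. By role, 5 of 6 Kv1 genes (median -0.21), 4 of 4 Kv3 (-0.17), 3 of 3 Kv4 (-0.15) and 4 of 4 Kv7 genes (-0.10) lay below 0. Two-pore-domain genes (0.03), auxiliary subunits (-0.03) and modifier subunits (-0.03) had medians near 0. Transcript length moved with these values. Across the 13656 genes with a length, the log2 difference and the length of the longest transcript had a Spearman rho of -0.49 in the transfer experiment, and across 13440 genes one of -0.29 in the depletion experiment. These are descriptions across genes of the same libraries. The median length was 3990 bases for the members and 3496 for all genes tested. With the trend subtracted, the median of the members was -0.05 in the transfer experiment and -0.09 in the depletion experiment. In the transfer experiment the medians of Kv3, Kv4 and Kv7 genes were then -0.11, -0.06 and -0.00. Those of Kv1 genes and inward rectifiers were -0.16 and -0.17, the latter against -0.15 before. In the depletion experiment the medians of Kv3, Kv4 and calcium-activated genes were then -0.21, -0.27 and -0.13. The mean log2 level of the members per library, relative to the young T mean, was -0.18 to -0.02 in aged T recipients, against -0.15 to 0.10 in young T recipients, and the groups overlap. Oligodendrocyte markers were higher for 5 of 5 genes in aged T recipients (median 0.37), and pericyte and smooth muscle markers lower for 6 of 6 (median -0.54). Meningeal fibroblast markers were lower for 3 of 3 genes with a median of -1.16, and summed to 96.9 to 217 normalized counts in aged T recipients, against 144 to 1899 in young T recipients. Of these markers, Col1a1 averaged 356 ± 617 normalized counts in young T recipients (SD, n = 6), a spread larger than its mean. Ependymal markers were higher for 3 of 3 genes with a median of 0.74, and summed to 195 to 541 normalized counts in aged T recipients, against 130 to 274 in young T recipients. In each of these last 2 lists, 2 of 3 genes had an unadjusted limma p under 0.05, against 8.25% of all genes. Their part in the values of the members was not tested.

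The experiments share no library, but they differ in host age and treatment. The transfer compared aged with young CD8+ T cells in mice of 4 months, all dosed with anti-CD8a. The depletion targeted CD8+ T cells in mice of 22 to 24 months. Their values are set side by side as a description, and a shared sign does not mean a shared response. Of the 70 members, 36 lay below 0 in both, 10 above 0 in both, 13 below 0 in the transfer experiment alone and 11 below 0 in the depletion experiment alone. Each experiment by itself had most members below 0, at 49 and 47 of 70. The share of all genes below 0 in both was not computed, so the 36 cannot be read as a shared response. Over all genes, longer transcripts had lower log2 differences in both experiments (Spearman's rho -0.49 and -0.29). Pearson's r across the 70 genes was 0.03 and Spearman's rho 0.24, given as a description because genes of a library are not independent. The members described first in each experiment had these values in the other one. Kcnc2, Kcng1, Kcnd3 and Kcnf1 differed by -0.16 ± 0.14, -0.03 ± 0.16, -0.15 ± 0.16 and 0.01 ± 0.13 in the transfer experiment (log2, SE), and Kcnj9, Kcnn2 and Kcna2 by -0.21 ± 0.15, -0.23 ± 0.13 and -0.32 ± 0.22 in the depletion experiment, the last of these resting on antibody replicate 5 as given above. The difference between the experiments was not tested. Kcnh4 was 1.21 higher with the antibody and 0.54 below young T in aged T recipients on the log2 scale (-0.54 ± 0.38, SE), and both experiments measured it at low counts.

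**Figure D5:**
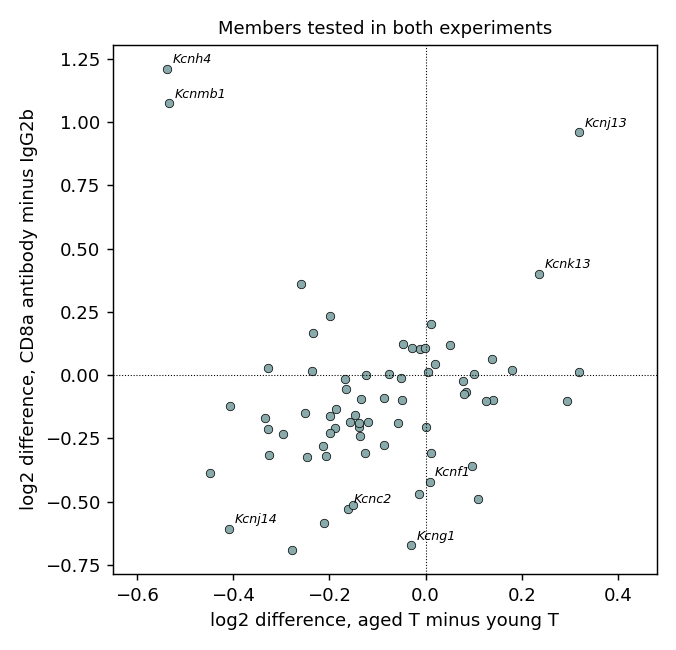
Log2 difference of each of the 70 tested members in the transfer experiment (x axis, aged T minus young T) and the depletion experiment (y axis, CD8a antibody minus IgG2b). Each point is a gene and dotted lines mark 0. Of the points, 36 lie at the lower left, and Kcnh4 and Kcnmb1 at the upper left.

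Kcnj13 varied more between libraries than between groups. It had 378, 136, 25.9, 18.3 and 267 normalized counts in aged T recipients, with 28.3, 60.0 and 241 as the lowest, median and highest of the young T recipients. With the CD8a antibody it had 135, 195, 160, 16.8 and 6.86 normalized counts, against 178, 40.9, 7.82, 26.8 and 10.7 with IgG2b. Ttr, the transthyretin of the choroid plexus, had 48127, 19713, 1996, 1585 and 50625 normalized counts in the same aged T libraries, and 18119, 25071, 29397, 1498 and 591 with the CD8a antibody, against 25020, 3785, 1801, 3603 and 1580 with IgG2b. The libraries with the higher Kcnj13 values were also those with the higher Ttr values. All 5 choroid plexus markers were higher in mean in both experiments, and they summed to 2179 to 52964 normalized counts in aged T recipients, against 2793 to 33519 in young T recipients, and to 799 to 31353 with the CD8a antibody, against 1982 to 26612 with IgG2b. Their part in the value of Kcnj13 was not tested. Without aged T replicate 1 or 5, the log2 difference of Kcnj13 in the transfer experiment was -0.18 or -0.06, against 0.32 with all libraries.

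Genes that work with the members were described by the same fits. Of 14 auxiliary partners outside the name pattern, 12 were tested in each experiment. In the transfer experiment 11 of the 12 lay below 0 (median -0.13), against 51% of all genes. Of the 12, 2 had an unadjusted limma p under 0.05, both lower, against 3.96% of all genes. They were Abcc8 and Abcc9, the sulfonylurea receptors of the ATP-sensitive channel, with differences of -0.37 ± 0.15 each (log2, SE). Kcnj11, the pore of that channel in neurons, averaged 477 ± 31.3 normalized counts in aged T recipients (n = 5) and 535 ± 33.4 in young T recipients (n = 6, SD), a log2 difference of -0.16 ± 0.08 (SE). In the depletion experiment 9 of the 12 partners lay below 0 (median -0.11), against 50.4% of all genes. Among them Dpp10, a Kv4 partner, differed by -0.44 ± 0.20 (log2, SE). With the length trend subtracted, the median of the partners was -0.00 in the transfer experiment and -0.01 in the depletion experiment. Sodium channel genes lay below 0 for 9 of 10 in the transfer experiment and 5 of 10 in the depletion experiment. Calcium channel genes did so for 16 of 22 and 13 of 22, and all genes for 51% and 50.4%. None of these partners and other channels was called by limma in either experiment, where it called 0 of 14162 and 1 of 13939 genes.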

How the data were processed

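Polyadenylated RNA from the hippocampus was sequenced strand-specifically and paired-end, per the labels' protocols. STAR, RSEM and DESeq2, with no version, and mm10 are named in the submitters' processing notes. Settings for annotation and counting were not given in the sources used here. Per the file headers and values, the deposited tables, 1 per experiment, hold a normalized signal (normalized count) per gene and library. They also hold the log2 fold change, test score and p-values from the authors' own comparison, signed as control over treated. All values were whole multiples of 1 step per library (100%, relative tolerance 1e-06), so reads were recovered. No 2 libraries of a group agreed within sampling noise (a chi-square of at least 7.11 per degree of freedom). All intervals between libraries reflect the libraries' spread, and their depths are given with the groups.

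The members and lists were chosen with earlier results of these data known. Each experiment was fitted alone, without covariates, with limma 3.58.1 in R 4.3.3, using its trend option, on log2(normalized count + 1), for genes with a mean of at least 10 and a Benjamini-Hochberg threshold of 0.05. Fold changes on this scale can understate changes of weakly expressed genes, but not in every case. Kcnh4 and Kcnmb1 differed by 1.21 and 1.07 on this scale in the depletion experiment, and by 1.05 and 0.91 with DESeq2. edgeR 4.0.16, DESeq2 1.42.0 and limma-voom on recovered reads were alternatives, beside other pseudocounts, filters and scalings, a marker covariate, a length trend and each library left out. Members called by any tool, the 12 with the smallest p per experiment and 16 set genes could be shown by library, and results for some of these genes are not reported here. Positions are from RefSeq (GRCm38.p6) and lengths from the longest GENCODE vM21 transcript, both with all 87 members. Simulated counts carried 100 genes with a 1.5-fold and 100 with a 2-fold change. limma found 52% and 87% of them in the design of the transfer experiment, with 4 false calls in 14122 genes, and 26% and 69% in that of the depletion experiment, with 6 in 13898.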

Additional observations from a re-analysis of the deposited data

Results flagged for a closer look

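Dixon's test at the 95% level was applied to 106 groups of values. These were values of single members, the mean level of the members and the ventral minus dorsal score. It picked out a single library 4 times, of which 2 are given here. Chance gives about 1 in 20, so 4 of 106 is not above that rate. Kcna2 had 1061 normalized counts in antibody replicate 5, against 2409 to 2822 in the other antibody libraries. Kcnj13 had 178 normalized counts in IgG2b replicate 1, against 7.82 to 40.9 in the other IgG2b libraries.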

How the results depend on the processing

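With other pseudocounts, filters, scalings and tools, the count of members below 0 and the median of the members in the transfer experiment kept their direction, and limma called 0 members under every setting. In the depletion experiment DESeq2 called 2 members among 92 genes, and 1 among 131 genes with the ventral minus dorsal covariate. Members with an unadjusted p under 0.05 there numbered 6 of 59 with a filter at a mean of 50, against 8.21% of all genes. That filter left out Kcnh4, Kcnmb1, Kcnmb2 and Kcnj14, whose means were 16.6, 14.8, 46.1 and 44.3 normalized counts. With the covariate they numbered 16 of 70, against 10.2% of all genes. The covariate also moved the median of the members to -0.24, and the cause of that shift was not tested.

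Leaving out each library in turn gave 3 to 12 members with an unadjusted p under 0.05 in the transfer experiment (4.24% to 12.8% of all genes). It gave 46 to 54 below 0 and a median of -0.17 to -0.08. In the depletion experiment it gave 8 to 15 (5.96% to 13.2% of all genes), 47 to 53 and -0.14 to -0.07. The 15 came from the fit without antibody replicate 5, at 13.2% of all genes. DESeq2 called 0 to 4 members among 25 to 303 genes. The DESeq2 fits without a library or with the covariate were chosen after seeing the data.

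Signs turned for some members, not all of which had small log2 differences or values resting on few libraries. With the length trend subtracted, Kcnq3 was 0.016 and Kcnk1 -0.019 in the transfer experiment, and Kcnq3 0.13 in the depletion experiment. There Kcnq3 was 0.025 with DESeq2 and 0.032 with edgeR. With the covariate, Kcnd2 was -0.88, Kcnk1 -0.26 and Kcnip3 0.035. Kcnj14 was 0.075 and Kcnk13 -0.11 in that fit, against -0.61 and 0.40 without the covariate. Both kept their sign when each library was left out, at -0.74 to -0.47 and 0.23 to 0.51. Over the fits without 1 library, Kcnab2 ranged from -0.13 to 0.031, Kcnj13 from -0.18 to 0.89 and Kcnk1 from -0.080 to 0.15 in the transfer experiment. In the depletion experiment Kcnd2 ranged from -0.080 to 0.12, Kcnq3 from -0.15 to 0.17 and Kcnip3 from -0.17 to 0.016.

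No paired analysis was possible because the labels give the groups no shared replicate numbers. Members with few reads, such as the 17 left untested, are limited by depth.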
